A study of Homo sapiens with 2 samples.

Results

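The Notch pathway was followed through 10 genes in RNA-seq data from MDA-MB-231 cells, a human triple-negative breast cancer line, with and without knockdown of the RNA-binding protein RBMS1. They were the receptors NOTCH1, NOTCH2 and NOTCH3, the ligands JAG1 and JAG2, the fringe enzymes LFNG and RFNG, the O-glycosylation enzymes POFUT1 and POGLUT1, and the target gene HES1. The genes were found by their GENCODE release 29 symbol through the Ensembl transcript identifiers in the files. All 10 were among the 49627 genes listed, and 8 of the 10 were among the 11186 genes with a mean of at least 1 FPKM over the 2 libraries. FPKM counts fragments per kilobase of a transcript relative to all mapped fragments, so that genes of different length can be compared within a library.

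Of the 2 libraries, 1 came from cells carrying a pLKO.1 lentiviral short hairpin RNA against RBMS1 and 1 from control cells, for which the study used the empty pLKO.1 vector. Both were stable puromycin-selected lines grown in L15 medium with serum and without added CO2. With 1 library per group, no spread between replicates, test or p-value could be given, and each difference describes these libraries. The interval printed after a value is the sum of the intervals that Cufflinks gave to the transcripts of a gene, and it covers the estimate within a library only. RBMS1 itself was at 3.76 FPKM (3.12 to 5.39) in the knockdown and 24.1 FPKM (21.7 to 27.7) in the control library, a log2 ratio of -2.40, in the direction of the labels. Each FPKM stood for a median coverage of 12.3 (knockdown) or 11.3 (control), so both libraries had a similar relative depth, while the depth in reads is unknown.

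Notch receptors are activated by ligands of the Jagged and Delta families on neighbouring cells, are then cut within the membrane by gamma-secretase, and release an intracellular domain that joins the DNA-binding protein RBPJ to switch on genes such as HES1. The extracellular EGF repeats of the receptors carry O-fucose and O-glucose, added by POFUT1 and POGLUT1, and fringe enzymes extend the O-fucose and so tune which ligands activate a receptor. The pathway governs cell fate in the mammary gland and is often active in triple-negative breast cancer.

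As gene totals, the receptors and ligands were at similar levels in both libraries, and the differences lay among the modifying enzymes and the target. The ratios of NOTCH1, NOTCH2, LFNG, POFUT1 and HES1 depended on which transcripts were counted. RFNG was listed at 0 in the knockdown and was present in the control library, and HES1 was higher in the knockdown library. A gene counted as 2-fold different when its log2 ratio was 1 or more, or -1 or less, computed as log2 of FPKM plus 1 in the knockdown library over FPKM plus 1 in the control library, a scale that understates the change of low genes. On this scale 1 of the 10 genes was at least 2-fold lower (RFNG, through its listing at 0) and 1 was at least 2-fold higher (HES1, in the main setting and 4 of 9 alternatives). Over all genes with a mean of at least 1 FPKM, 2.8% were at least 2-fold lower and 2.96% were at least 2-fold higher. The intervals of both libraries did not overlap for RFNG, POFUT1 and HES1, 3 of the 8 members with a mean of at least 1 FPKM, and for 24.7% of all genes with such a mean. The median log2 ratio was 0.12 for these 8 members and 0.083 for all 10, beside 0.019 over all genes with a mean of at least 1 FPKM. The sign of the member medians depended on the transcripts counted. They were -0.51 and -0.14, respectively, with the dominant transcript only, and -0.12 and -0.097 with weighting by transcript length. In bulk RNA, a smaller share of cells with a transcript and less of it per cell cannot be told apart.

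Within the control library, NOTCH2 had the highest gene total on the FPKM scale, followed by POFUT1, and their intervals did not overlap. With reference transcripts only this order turned, with POFUT1 at 21.8 FPKM and NOTCH2 at 8.20 FPKM. By gene total JAG1, NOTCH1 and RFNG came next, and neighbours in that order had overlapping intervals, as did HES1, POGLUT1 and LFNG below them. JAG2 and NOTCH3 were the lowest of the 10 and were the genes that did not reach a mean of 1 FPKM. In the knockdown library POFUT1 and NOTCH2 were the highest, with overlapping intervals. HES1 moved from position 6 in the control library to position 3 in the knockdown library, where its interval overlapped that of JAG1, and RFNG moved from position 5 to position 10. The move of HES1 includes the place left by RFNG. With reference transcripts only, HES1 was at 5.14 FPKM in the knockdown library. There it stood below NOTCH2 at 13.1, JAG1 at 7.23 and POFUT1 at 6.77 FPKM.

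Among the receptors, NOTCH2 (chr1:119911553-120069626, minus strand, GRCh38) was the most abundant, at 28.7 FPKM (27.1 to 30.9) in the knockdown and 28.0 FPKM (26.6 to 30.1) in the control library, a log2 ratio of 0.034. The gene total was thus close in both libraries, but it was made of different transcripts. The log2 ratio was 0.62 with reference transcripts only and -2.12 for the dominant transcript, where this setting pairs 2 assembled transcripts with the same introns and different ends, a minor one in the knockdown and the major one in the control library. The reference transcript NOTCH2-201, with 34 exons, was at 13.1 FPKM (12.5 to 13.8) in the knockdown and 8.20 FPKM (7.72 to 8.68) in the control library. An assembled transcript with the same 33 introns was at 3.79 FPKM in the knockdown and another at 19.8 FPKM in the control library. Together, transcripts with all 33 introns made up 16.9 FPKM in the knockdown and 28.0 FPKM in the control library. The rest of NOTCH2 in the knockdown library was an assembled transcript of 35 exons at 11.8 FPKM (11.1 to 12.4). This transcript lacked the annotated intron 1, began at position 120054225 inside it and had 2 introns of its own before joining the other 32. Such a transcript was not assembled in the control library. NOTCH2 shares sequence with its partial copies, and fragments can be divided between them. The copy NOTCH2NLA was at 9.74 FPKM in the knockdown and 15.0 FPKM in the control library, and how many fragments it shares with NOTCH2 was not measured.

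NOTCH1 (chr9:136494433-136545786, minus strand), a receptor with roles in both luminal fate and tumour growth, was at 6.50 FPKM (5.90 to 7.31) in the knockdown and 7.45 FPKM (7.03 to 8.09) in the control library. Its log2 ratio was -0.17 and the intervals overlapped, while the ratio was -0.87 with reference transcripts only or the dominant transcript only. All of NOTCH1 in the control library was the reference transcript NOTCH1-201, whereas in the knockdown library this transcript was at 3.64 FPKM and made up 56.0% of the gene. The remainder there was split between an assembled transcript without exon 9, of 114 nt, at 1.54 FPKM (1.37 to 1.70), and another at 1.33 FPKM (1.16 to 1.49) that differed from the reference by 1 intron. That intron, number 18, was 663 nt long in the assembled transcript and 661 nt in the reference.

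NOTCH3 (chr19:15159038-15200981, minus strand), which is more prominent in vascular smooth muscle and in some breast tumours, was close to the floor in both libraries. It was at 0.106 FPKM (0 to 0.578) in the knockdown and 0.00883 FPKM (0 to 0.366) in the control library, and the highest coverage of a NOTCH3 transcript was 0.979. No difference could be read at this level.

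JAG1 (chr20:10637684-10673999, minus strand), the main Jagged ligand of these cells by level, was at 7.23 FPKM (6.78 to 8.50) in the knockdown and 8.22 FPKM (7.71 to 9.61) in the control library. JAG2 (chr14:105140981-105168824, minus strand), its close relative, was at 0.467 FPKM (0.376 to 0.749) and 0.598 FPKM (0.490 to 0.913), respectively. Both ligands had a log2 ratio slightly below 0, of -0.16 for JAG1 and -0.12 for JAG2, with overlapping intervals. Each was carried by a single reference transcript in both libraries, JAG1-201 with 26 exons and JAG2-201 with 26 exons, so their totals did not depend on assembled transcripts.

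The fringe enzymes add N-acetylglucosamine to O-fucose on Notch receptors. RFNG (chr17:82047902-82051831, minus strand) was the 1 gene of the 10 listed at 0 in 1 library. In the control library the reference transcript RFNG-201, with 8 exons and 1828 nt, was at 5.70 FPKM (5.05 to 6.35) with a coverage of 65.2, and the summed interval of the gene was 5.05 to 7.98 FPKM. In the knockdown library all 12 RFNG reference transcripts were listed at 0, with a summed interval of 0 to 1.58 FPKM, of which RFNG-201 had an upper bound of 0.0288 FPKM, and no transcript was assembled at the gene in either library. The log2 ratio of RFNG is set by the pseudocount and does not measure a fold, and Cufflinks can list a gene at 0 when its estimate fails. RFNG entered the filter of 1 FPKM through the control library alone. Among all genes with a mean of at least 1 FPKM, 1.27% were listed at 0 in the knockdown library, and 47 protein-coding genes were listed at 0 there with at least 5 FPKM in the control library. The reverse, 0 in the control library with at least 5 FPKM in the knockdown library, held for 49.

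The genes around RFNG were present in both libraries. GPS1, a subunit of the COP9 signalosome, starts, by RefSeq, 87 bases from RFNG on the opposite strand and was at 34.9 FPKM in the knockdown and 29.5 FPKM in the control library. DUS1L, a tRNA-modifying enzyme, was at 21.2 and 25.3 FPKM, and DCXR, a sugar reductase, was at 17.5 and 16.5 FPKM. FASN, the fatty acid synthase, was at 31.5 and 27.4 FPKM. CENPX was at 32.5 and 32.2 FPKM, RAC3 at 5.12 and 5.11 FPKM and LRRC45 at 3.55 and 3.12 FPKM, in the same order of libraries. All 7 of these neighbours therefore had a log2 ratio between -0.25 and 0.23. These neighbours were chosen after the RFNG values had been seen. The strandedness of the libraries is not given in the sources used here, so fragments from RFNG and from genes overlapping it on the other strand cannot be told apart.

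LFNG (chr7:2512529-2529177, plus strand), the fringe enzyme best known from somite formation, was at 3.03 FPKM (2.30 to 3.97) in the knockdown and 2.48 FPKM (1.87 to 3.33) in the control library, a log2 ratio of 0.21 with overlapping intervals. LFNG-202, whose first exon lies upstream, was at 1.22 FPKM (0.887 to 1.55) in the knockdown and 1.39 FPKM (1.06 to 1.72) in the control library. LFNG-201, which starts further downstream, was at 1.51 FPKM (1.19 to 1.82) in the knockdown and was listed at 0 in the control library. Assembled transcripts added 0.309 FPKM in the knockdown and 1.09 FPKM in the control library. The direction of the LFNG total turned with the way of summing, to -0.29 when transcripts were weighted by length and to -0.11 with the dominant transcript only, while it was 0.64 with reference transcripts only and 0.38 when overlapping assembled transcripts were added.

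POFUT1 (chr20:32207880-32238667, plus strand) transfers the first fucose to EGF repeats. It was at 33.7 FPKM (30.7 to 37.0) in the knockdown and 21.8 FPKM (20.7 to 23.3) in the control library, a log2 ratio of 0.60. The intervals did not overlap, but the sum hid a change in the transcripts that Cufflinks listed. The control library held only the reference transcript POFUT1-202, of 7 exons and 5235 nt, at 21.8 FPKM. In the knockdown library this transcript was at 6.77 FPKM (6.26 to 7.29), or 20.1% of the gene. An assembled transcript of 6 exons and 1026 nt, which ended before the last exon, was at 14.3 FPKM (12.6 to 16.0). Another of 4634 nt was at 12.6 FPKM (11.8 to 13.3), or 37.3% of the gene, and joined exon 1 directly to exon 3. With reference transcripts only, the log2 ratio of POFUT1 was -1.55, and with each transcript weighted by its length it was -0.071, a weighting chosen after these transcripts had been seen. The direction of the POFUT1 difference thus depended on how transcripts were summed.

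The joins of POFUT1 are shown because the skipping of exon 2 separated the libraries. Exon 2 (chr20:32210071-32210192, GRCh38, plus strand) lies within the coding sequence and has 122 bases, which leaves a remainder of 2 when divided by 3. The bases below run 5′ to 3′ along the GENCODE transcript, 20 from each exon, and bases of exon 2 are in capitals.
Exon 1 to exon 2: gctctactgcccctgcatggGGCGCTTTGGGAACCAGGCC
Exon 2 to exon 3: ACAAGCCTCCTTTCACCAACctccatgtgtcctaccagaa
Exon 1 to exon 3: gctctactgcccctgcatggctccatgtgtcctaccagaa
Transcripts with the last join summed to 12.6 FPKM in the knockdown and 0 in the control library. The join was put together from the assembled coordinates and the reference bases, and reads across it were not analysed here.

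POGLUT1 (chr3:119468938-119494708, plus strand), which adds O-glucose to the same repeats, was at 3.47 FPKM (3.12 to 4.38) in the knockdown and 2.90 FPKM (2.57 to 4.0) in the control library. The log2 ratio was 0.20 and the intervals overlapped. The reference transcript POGLUT1-201 carried the whole gene value in both libraries.

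HES1 (chr3:194136145-194138732, plus strand), a basic helix-loop-helix repressor and a direct target of Notch, was at 9.65 FPKM (7.65 to 11.7) in the knockdown and 3.82 FPKM (3.22 to 4.49) in the control library. Its log2 ratio was 1.14 and the intervals did not overlap. The full-length reference transcript HES1-201, of 4 exons and 1578 nt, was at 5.14 FPKM (4.47 to 5.81) in the knockdown and 3.82 FPKM (3.22 to 4.43) in the control library. The knockdown library had in addition an assembled transcript of 619 nt at 4.51 FPKM (3.18 to 5.83), which had the same 3 introns but ended within exon 4. A changed pseudocount cannot turn the sign of HES1, and the 3 scalings were too small to do so. The gene stayed higher in the knockdown library under each of the 9 alternatives, with log2 ratios from 0.35 to 1.31. It was no longer 2-fold higher with reference transcripts only or the dominant transcript only (0.35 in both), with a pseudocount of 5 FPKM (0.73), with weighting by length (0.71) or when assembled transcripts overlapping its exons were added (0.76).

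Transcripts of a single exon that overlap HES1 were assembled in both libraries. In the knockdown library 1 such transcript spanned all 3 introns and was at 3.52 FPKM (2.99 to 4.05). In the control library 1 spanned the first 2 introns, at 2.37 FPKM (1.93 to 2.81), and 1 began inside intron 3 and ran past the annotated end, at 1.16 FPKM (0.869 to 1.46). They cover different parts of the gene and, of the HES1 ratios above, entered only that of 0.76.

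The promoter of HES1 is shown because HES1 had the largest increase of the 10 genes in the main setting, though not with reference transcripts only, and because it is a known target of RBPJ. The 250 bases before the RefSeq start (chr3:194135898-194136147, GRCh38.p14, plus strand) read as follows, with matches to the motif TGGGAA, the core of the RBPJ recognition sequence, in capitals.
HES1 promoter: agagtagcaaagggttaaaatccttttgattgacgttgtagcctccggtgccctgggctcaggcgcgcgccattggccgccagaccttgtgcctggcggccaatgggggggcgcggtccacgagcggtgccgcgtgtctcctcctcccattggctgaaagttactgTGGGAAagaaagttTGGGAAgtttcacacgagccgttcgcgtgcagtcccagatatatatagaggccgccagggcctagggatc
The 2 matches start 84 and 70 bases before the start. RefSeq windows of 250 bases before to 50 bases after a start were found for all 10 genes and searched on both strands. A match was present for 3 of the 10 genes, HES1, LFNG and POGLUT1, and in 24.0% of all 35116 windows. As many matches as in HES1 were found in 3.80% of windows. A match describes the letters of the window and says nothing about binding in these cells.

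RBMS proteins bind AU-rich RNA, so the pentamer ATATA was counted on the sense strand of the 3′-UTR of the main reference transcript. HES1 had 2 matches in 499 nt, or 4.01 per kb. NOTCH2 had 5 matches in 3753 nt (1.33 per kb), POFUT1 had 5 in 4006 nt (1.25 per kb), POGLUT1 had 3 in 2270 nt and NOTCH1 had 1 in 1638 nt. JAG1, JAG2, LFNG and RFNG had none. The median over 9236 genes with a mean of at least 1 FPKM was 0.792 matches per kb, and 58.1% of these genes had a match. HES1 had the highest density of the 9 members counted, and 87.7% of the 9236 genes had a density at or below it. This count describes the reference transcript of HES1, whose log2 ratio was 0.35. The assembled HES1 transcript of 619 nt, at 4.51 FPKM in the knockdown library, ended before this 3′-UTR and so lacks these matches. The matches of HES1 are given with 10 bases on each side and the pentamer in capitals.
HES1 match at position 195 of the 3′-UTR: ctatatttgtATATAttttatatgt
HES1 match at position 349 of the 3′-UTR: atttgagaaaATATAataaaagaaa
Matches were thus present in 5 of the 9 members counted, among them NOTCH1, NOTCH2 and POGLUT1, whose intervals overlapped between the libraries. B4GALT1, described below, had 2 matches in 2817 nt, or 0.71 per kb, and binding of RBMS1 to any of these was not analysed here. The paper describes several RBMS1 binding sites in both truncated parts of the B4GALT1 3′-UTR. The pentamer counted here is thus not the paper's definition of a site.

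The other genes of the pathway were taken from lists by role, 70 genes in all, of which 49 had a mean of at least 1 FPKM. Of these 49, 1 was at least 2-fold lower (2.8% of all genes that pass the same filter), 1 was at least 2-fold higher (2.96%), namely PSENEN through a listing at 0, 25 had a ratio below 0 and 24 above 0, with a median log2 ratio of -0.0081. The intervals did not overlap for 13 of the 49, of which 8 were lower with the knockdown and 5 higher, and for 24.7% of all genes that pass the filter, 1283 lower and 1484 higher. None of the 7 other receptors, ligands and fringe enzymes reached 1 FPKM, and MFNG, the third fringe enzyme, was the highest at 0.309 FPKM in the knockdown and 0.135 FPKM in the control library.

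Of 8 genes for cutting the receptor, all reached 1 FPKM, and PSENEN, a subunit of gamma-secretase, stood apart. PSENEN-201 was at 49.5 FPKM (45.3 to 53.6) with a coverage of 578 in the knockdown library, and all 3 PSENEN transcripts were listed at 0 in the control library, as were 1.45% of all genes with a mean of at least 1 FPKM. Its neighbours KMT2B, at 7.37 and 8.71 FPKM, and PROSER3, at 6.30 and 6.16 FPKM, were present in both libraries, while LIN37, U2AF1L4 and IGFLR1 were listed at 0 in both. LIN37 is a subunit of a cell-cycle complex. Whether a listing at 0 stands for absent RNA or for a failed estimate was not tested. The metalloprotease ADAM17 had the largest decrease of these 8, at 10.0 FPKM in the knockdown and 11.8 FPKM in the control library, and its log2 ratio was -0.22.

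Of 12 further genes for the sugars of EGF repeats, 10 reached 1 FPKM. B4GALT1, which adds galactose to the fringe product, was at 9.70 FPKM in the knockdown and 21.4 FPKM in the control library, a log2 ratio of -1.07. This ratio was -0.85, and so not 2-fold, with a pseudocount of 5 FPKM, and -1.89 with reference transcripts only or the dominant transcript only. The study itself followed B4GALT1 up, so this is no independent result. GMDS, the first enzyme of GDP-fucose synthesis, had the largest increase of this list, from 14.4 FPKM in the control library to 19.7 FPKM in the knockdown library.

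In the main setting no gene differed 2-fold among the 11 measured genes of endocytosis and turnover, the 16 of the nuclear complex or the 4 other target genes. With reference transcripts only or the dominant transcript only, 2 of the 11 genes of endocytosis and turnover were at least 2-fold higher, as were 5.44% and 6.18%, respectively, of the 11186 genes that pass the filter in the main setting. With the dominant transcript only, 2 of the 8 genes for cutting the receptor were 2-fold higher, where 1 was in the main setting. In the list of endocytosis and turnover the ubiquitin ligase subunit FBXW7 had the largest decrease, with a log2 ratio of -0.28, and NEURL1B the largest increase, with 0.33. In the nuclear complex the coactivator MAML2 was at 5.33 FPKM in the knockdown and 7.48 FPKM in the control library, and the acetyltransferase KAT2B was at 5.63 and 3.83 FPKM. RBPJ itself was at 27.8 and 31.8 FPKM. Among the other targets HES4 had a log2 ratio of -0.48 and GATA3 of 0.28, while MYC, at 35.5 and 42.2 FPKM, and CCND1, at 83.9 and 103 FPKM, were lower in the knockdown library. The 4 had a median log2 ratio of -0.27. Intervals did not overlap for 2 of them, MYC and CCND1, beside 24.7% of all genes that pass the filter. Below 1 FPKM, HEYL was at 0.233 and 0.428 FPKM with intervals apart, and HES2 was at 0.475 and 0.308 FPKM with overlapping intervals. The targets HEY1, HEY2, HES5 and NRARP were below 0.1 FPKM in both libraries.

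The markers matched MDA-MB-231 cells in both libraries. In the knockdown and control libraries, respectively, VIM was at 496 and 563 FPKM, CD44 at 154 and 204, AXL at 251 and 229, CAV1 at 168 and 112, FOSL1 at 159 and 202, and ETS1 at 51.6 and 46.3. The luminal and epithelial markers ESR1, PGR, CDH1 and FOXA1 were below 0.3 FPKM, GATA3 was at 2.11 and 1.56 FPKM, EPCAM at 1.93 and 3.66 FPKM and ERBB2 at 7.50 and 7.01 FPKM. The 4 leukocyte markers summed to 0.898 and 0.985 FPKM, mostly CD14, with CD3E and CD68 listed at 0. The 4 endothelial markers summed to 0.521 and 0.686 FPKM, mostly KDR, and the 5 fibroblast and smooth muscle markers to 1.61 and 1.78 FPKM, led by PDGFRB in the knockdown and COL1A1 in the control library. Each list for another cell type thus summed to under 2 FPKM in both libraries. All 3 sums were the lower in the knockdown library, but single genes such as PDGFRB, at 0.855 and 0.413 FPKM, went the other way. No difference could be read at this level.

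The table of the authors' own comparison, which holds 7236 transcripts chosen by that comparison, has FPKM values on a scale of its own, with a median of 1.74 times the library values in the knockdown and 1.78 times in the control library. It lists 4 transcripts of the 10 genes. LFNG-201 is at 2.25 FPKM for the knockdown and 0.120 FPKM for the control. JAG2-202 is at 0.0958 and 0.462 FPKM, POGLUT1-205 at 1.25 and 0 FPKM and NOTCH3-206 at 0.0586 and 0 FPKM. Of these, JAG2-202 and POGLUT1-205 were at 0 in both library files, so the assignment of fragments to transcripts differed between the tables. RFNG, POFUT1 and HES1 transcripts are not among those listed there.

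The log2 ratio of NOTCH1 was below 0 and that of HES1 above 0 under each of the 9 alternatives tried, whereas NOTCH2, LFNG and POFUT1 had both signs. NOTCH3 was also above 0 under each, at a level where no difference could be read. The alternatives hardly tested the sign of JAG1, JAG2 and POGLUT1, which have 1 transcript each above 0 FPKM. They could not change the sign of RFNG, which is listed at 0 in the knockdown library.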

How the data were processed

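RNA was sequenced from 1 RBMS1 knockdown and 1 control library of MDA-MB-231 cells. The submitters' processing notes name Bowtie2 2.0.6, TopHat2 2.0.9, Cufflinks 2.1.1 and Cuffdiff 2.1.1. The authors deposited FPKM per transcript, with intervals and coverage, and a table of their comparison whose fold changes, p-values and q-values were not used. The build is not given in the sources used here; 98.1% of matched reference transcripts in each library started at the GENCODE 29 (GRCh38) position. Gene FPKM summed reference transcripts and those assembled transcripts that had at least 1 of its introns, a transcript going to the gene whose introns it shared most. A pseudocount of 1 FPKM and, for counts over all genes, a mean of at least 1 FPKM were used. Sums were computed in Python 3.11.15 and tested on simulated data. Sequences came from RefSeq promoters and GENCODE transcripts. Alternatives were pseudocounts of 0.1 and 5 FPKM, 3 other ways of choosing transcripts, 3 scalings and, added after seeing the data, weighting by transcript length. Transcripts were named with at least 0.5 FPKM and 10% of a gene. Pathway genes were named for the largest decrease and increase of each list, for a 2-fold difference or for a listing at 0 in 1 library, RBMS1 and all markers were described as levels, and others named (among them MFNG, RBPJ, MYC, CCND1 and the neighbours of RFNG and PSENEN) were chosen after their values were seen. Of the pathway genes and markers chosen, 2 are not reported here. The members and lists were chosen with earlier results of these data known.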

Additional observations from a re-analysis of the deposited data

Results flagged for a closer look

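Assembled transcripts that share no intron with a gene but lie on its strand were not part of the gene values, and were present at 5 of the 10 genes. At 4 of these they summed to more in the knockdown library, and at HES1 the sums were 3.52 and 3.53 FPKM. Over the whole files, the knockdown library holds 60329 assembled transcripts and the control library 64210. How many of all genes have such unassigned transcripts, and in which library these sum to more, was not counted. At NOTCH1 they summed to 4.51 FPKM over 5 single-exon transcripts in the knockdown library and to 1.31 FPKM in 1 transcript in the control library. At NOTCH2 a transcript of 245 nt within an intron was at 16.0 FPKM (6.34 to 25.6) in the knockdown library, and none was assembled in the control library. At JAG1 2 such transcripts summed to 3.89 FPKM in the knockdown library, with none in the control library. At LFNG 1 transcript of 6789 nt was at 0.492 FPKM in the knockdown library, with none in the control library.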

How the results depend on the processing

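Of 90 log2 ratios of single genes under 9 alternatives, 77 lay within the interval of the main value and 13 did not. Many of the 77 repeat the main value by construction, such as reference transcripts only for JAG1, JAG2 and POGLUT1. The tally is therefore not a count of independent checks. With reference transcripts only, the log2 ratios were -0.87 for NOTCH1, 0.62 for NOTCH2, -1.55 for POFUT1 and 0.35 for HES1, with 2 genes at least 2-fold lower and 0 higher, where the main counts were 1 and 1. With the dominant transcript only they were -0.87 for NOTCH1, -2.12 for NOTCH2, -1.55 for POFUT1 and 0.35 for HES1, with 3 lower and 0 higher. Of the 11186 genes that pass the filter in the main setting, 5.97% were at least 2-fold lower and 6.18% higher in this setting. For NOTCH2 this setting pairs 2 assembled transcripts with the same introns and different ends, a minor one in the knockdown and the major one in the control library. With weighting by length POFUT1 was at -0.071, with 0 genes higher. With a pseudocount of 0.1 FPKM NOTCH3 was at 0.92 and RFNG at -5.86, and with 5 FPKM RFNG was at -1.10, with 0 genes higher. Over the same 11186 genes, the shares with 5 FPKM were 1.19% at least 2-fold lower and 1.11% higher. RFNG was at -4.07 in TPM and -2.74 in the main setting, all set by the added constant. Adding overlapping assembled transcripts left 0 genes higher, and among genes above 0 in both libraries 0 were lower. The median of the 10 genes ran from -0.14 to 0.14, and that of the 8 with a mean of at least 1 FPKM from -0.51 to 0.14. The factors of the 3 scalings amount to less than 0.04 on the log2 scale, but in TPM NOTCH3 was at 0.33, JAG2 at -0.23 and HES1 at 1.24. By construction TPM also enlarges the values, with B4GALT1 in the control library going from 21.4 to 59.2. The added constant stays at 1 and so acts as a smaller pseudocount.

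The share of all genes at least 2-fold lower was 2.8%, against 0.858% with no filter, 4.87% with reference transcripts only, filtered on their own mean, and 1.57% for genes above 0 in both libraries. The share at least 2-fold higher was 2.96%, against 0.915%, 5.31% and 1.55% in the same order and 1.93% at a mean of at least 5 FPKM. Where no construction is named, the cause was not tested. No paired analysis was possible because each group holds a single library. Read counts are unknown.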
